A study of Mus musculus with 10 samples.

Results

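Pericytes and vascular smooth muscle cells, together called mural cells, were followed here through 7 genes: Notch3, Heyl, Pdgfrb, Rgs5, Acta2, Tagln and Myh11. They were chosen by name, as a list of mural cell genes, out of 20009 genes with a count in the series. The level of each is the sum of the read counts over its transcripts. The study sequenced RNA from 2 muscles of wild-type mice, the slow-twitch soleus of the calf and the fast-twitch tibialis anterior (TA) of the shin. Soleus was represented by 5 libraries, 3 from males and 2 from females, and TA by 5 libraries with the same split. The libraries were made from total RNA of the muscle. No age, strain or treatment was stated, and all groups carried the wild-type genotype. The text gives a replicate by its muscle, sex and number, and levels are in CPM, read counts scaled to library size with TMM factors.

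Mural cells wrap the endothelial tube of blood vessels. Pericytes sit on capillaries within the same basement membrane as the endothelium, and smooth muscle cells form the contractile coat of arterioles and larger vessels. Endothelial cells recruit mural cells with the growth factor PDGF-B, which acts on the receptor encoded by Pdgfrb. Notch ligands on the endothelium act on Notch3 to keep the mural cells in their mature state. Heyl is a transcriptional repressor switched on by Notch. Rgs5 ends signals of G protein-coupled receptors and is abundant in pericytes. Acta2, Tagln and Myh11 encode the actin, an actin-binding protein and the myosin of the smooth muscle contractile apparatus.

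Libraries held 726414 to 961844 counts. The muscle labels fitted the fiber myosins: the slow myosin Myh7 had 1712 to 2393 counts in soleus libraries and 0 to 2 in TA libraries, and the fast myosin Myh4 had 0 to 1 in soleus and 806 to 2068 in TA. Of the Y-linked genes, Ddx3y had no count in the females and 6 to 20 counts in the males. Eif2s3y had 0 to 1 counts in the females and 3 to 12 in the males. Kdm5d had counts in both sexes, 11 to 92 in soleus females and 11 to 23 in soleus males. In TA it had 6 in each female and 9 to 10 in males. The genes Gm20594 and Cep295 together took 27.1% to 34.2% of the counts in soleus and 21.3% to 26.6% in TA. Leaving both genes out changed no call of a member, with Notch3 at -1.11 (edgeR adjusted p = 0.00042) and Rgs5 at -0.73 (adjusted p = 0.00634). One library, soleus female 2, stood apart. It listed 22862 transcripts, against 14993 to 16575 in the other 9, and its median Spearman correlation with the other soleus libraries was 0.742, against 0.857 to 0.905 for the other libraries within their muscle. All fits were therefore repeated without it, and its value is pointed out where it decided a result.

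Of the 7 genes, 5 passed the filter on low counts and were tested together with the other genes that passed, while Myh11 and Pdgfrb did not pass. Notch3 and Rgs5 were lower in soleus, and Acta2, Tagln and Heyl did not pass the test. Among all 5115 tested genes, 11.0% were called higher in TA and 11.0% higher in soleus at an adjusted p under 0.05 (edgeR quasi-likelihood test, Benjamini-Hochberg adjustment). The median log2 fold change of the 5 tested members, soleus over TA, was -0.21, against 0.01 over all tested genes. All log2 fold changes below are soleus over TA, so a negative value is lower in soleus. In whole muscle, fewer mural cells and less RNA per mural cell cannot be told apart.

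The start regions of 3 members had a RefSeq entry on GRCm38.p6 that could be printed here. They are shown for that reason, and not for their results. Notch3 and Rgs5 are the pair that differed between the muscles, and Acta2, the most highly counted contractile member, was not called. Each window runs from 250 bases before to 50 bases after the start of transcription in the RefSeq entry, 5′ to 3′ on the strand of the gene. The annotation used for the counts begins Notch3 at 32166852 and Acta2 at 34255590, inside each window but at another base. For Acta2, most of the bases before the RefSeq start lie within that gene span. Capitals mark GGGCGG on either strand in Notch3 (chr17:32166841-32167140, minus strand), CANNTG in Rgs5 (chr1:169655251-169655550, plus strand), and CArG boxes with at most 1 departure from their A and T core in Acta2 (chr19:34255324-34255623, minus strand).
Notch3: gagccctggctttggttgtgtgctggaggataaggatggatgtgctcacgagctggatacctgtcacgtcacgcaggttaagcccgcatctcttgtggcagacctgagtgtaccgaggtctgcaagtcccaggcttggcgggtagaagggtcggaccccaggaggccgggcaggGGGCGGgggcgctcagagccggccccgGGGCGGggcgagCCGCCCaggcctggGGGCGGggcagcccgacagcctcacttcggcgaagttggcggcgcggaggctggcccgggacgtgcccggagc
Rgs5: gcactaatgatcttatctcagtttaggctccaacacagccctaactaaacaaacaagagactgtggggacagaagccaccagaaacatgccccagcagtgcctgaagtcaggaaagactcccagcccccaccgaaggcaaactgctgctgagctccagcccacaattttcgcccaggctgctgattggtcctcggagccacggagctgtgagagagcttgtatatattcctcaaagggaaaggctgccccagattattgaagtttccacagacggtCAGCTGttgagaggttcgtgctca
Acta2: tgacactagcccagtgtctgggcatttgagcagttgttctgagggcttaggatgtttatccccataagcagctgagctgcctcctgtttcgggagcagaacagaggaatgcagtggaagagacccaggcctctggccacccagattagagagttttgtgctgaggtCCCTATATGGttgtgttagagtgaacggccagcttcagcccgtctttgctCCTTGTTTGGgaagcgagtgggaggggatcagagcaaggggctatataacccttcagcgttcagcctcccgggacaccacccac
The Notch3 window is 70.0% G and C and holds GGGCGG at 4 places, beginning 76, 49, 37 and 23 bases before the start, and 35.7% of all 32841 windows of this length hold that motif. The Rgs5 window holds 1 CANNTG, beginning at base 27 after the start, a motif found in 72.3% of windows. In the Acta2 window 2 CArG boxes with 1 departure begin 84 and 34 bases before the RefSeq start. CArG boxes are bound by the serum response factor, and 9.98% of windows hold at least 1 match of this looser kind. The windows of Notch3 and Rgs5 do not. The letters TGGGAA, the core recognised by the Notch partner RBPJ, occur in the Acta2 window, where they overlap the second CArG box, and not in those of Notch3 and Rgs5, against 25.6% of windows. These are matches of letters and not measured binding.

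Notch3, the mural Notch receptor (chromosome 17, 32120820 to 32166852, GRCm38), was lower in soleus than in TA. In soleus it had 39.8, 32.1 and 40.6 CPM in males and 38.2 and 43.4 CPM in females. In TA it had 103, 73.0 and 95.9 CPM in males and 83.8 and 69.4 CPM in females. The groups did not overlap, which held with TA higher for 7.76% and with soleus higher for 7.29% of all tested genes. Without overlap, each of the 5 same-numbered pairs must also have its lower value in soleus. The means were 38.8 ± 4.19 CPM in soleus and 84.9 ± 14.3 CPM in TA (± SD, 5 libraries a muscle), a log2 fold change of -1.12 (SE 0.16, edgeR adjusted p = 0.000373), which is 2.17-fold higher in TA. These levels rest on 24 to 38 counts per soleus library and 63 to 91 per TA library.

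Heyl, the Notch-induced repressor (chromosome 4, 123233556 to 123249875), did not pass. Soleus males had 18.7, 8.03 and 16.0 CPM and soleus females 9.23 and 1.14 CPM. TA males had 20.3, 18.5 and 10.4 CPM and TA females 5.82 and 6.04 CPM. The ranges overlapped almost wholly, and the lowest value, 1.14 CPM in soleus female 2, was a single count. The means were 10.6 ± 6.94 CPM in soleus and 12.2 ± 6.85 CPM in TA (± SD, 5 libraries a muscle), with a log2 fold change of -0.21 and a 95% interval of -1.10 to 0.68 (edgeR adjusted p = 0.778). The intervals of Heyl, Acta2 and Tagln each hold the value found for Rgs5, -0.74, so these fits do not show that the 3 genes were equal in the muscles. Without soleus female 2 the log2 fold change was 0.0077.

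Other genes of the Notch pathway were read from a list of 32, of which 10 passed the filter. Of these, 1 was lower in soleus and 0 were higher by edgeR, 2 had an unadjusted p under 0.05, and DESeq2 called 1. The median of the 10 was -0.39. Hes1, another Notch-induced repressor, was the call, with 28.9 ± 10.4 CPM in soleus and 57.9 ± 31.98 CPM in TA (± SD, 5 libraries a muscle) and a log2 fold change of -0.91 (SE 0.29, edgeR adjusted p = 0.0405). When single libraries were dropped in turn, the call ended in 7 of 10 cases, with an adjusted p of up to 0.107, and stayed when the dropped library was soleus male 1, soleus female 2 or TA male 2. Notch1, the receptor best known from endothelium, differed by -0.78 (SE 0.30, edgeR adjusted p = 0.0789). Its adjusted p was 0.0196 without soleus female 2. Among the ligands, Jag1 differed by -0.89 (SE 0.48, edgeR adjusted p = 0.216), Dll4 by -0.71 (SE 0.45, adjusted p = 0.306) and Jag2 by -0.36 (SE 0.21, adjusted p = 0.261). None of the ligands passed, but without soleus female 2, which had the highest soleus value of Dll4, that gene passed at -1.23 (adjusted p = 0.0384). In that fit 3 of 13 tested pathway genes were lower in soleus and 0 higher.

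Rgs5, the pericyte regulator of G protein signals (chromosome 1, 169655501 to 169695813), was the most highly counted member, with 5030 counts in all. In soleus it had 543, 499 and 417 CPM in males and 295 and 419 CPM in females. In TA it had 988, 878 and 752 CPM in males and 624 and 445 CPM in females. The lowest TA library, TA female 2, lay within the soleus range, while the other 4 TA libraries lay above every soleus library. The soleus library was below the TA library of the same number in 5 of 5 pairs, 4 of which these ranges fixed in advance. How many of all tested genes reach 5 of 5 was not counted. Means were 435 ± 94.7 CPM in soleus and 737 ± 213 CPM in TA (± SD, 5 libraries a muscle), and the log2 fold change was -0.74 (SE 0.16, edgeR adjusted p = 0.00607), or 1.67-fold higher in TA.

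**Figure D1:**
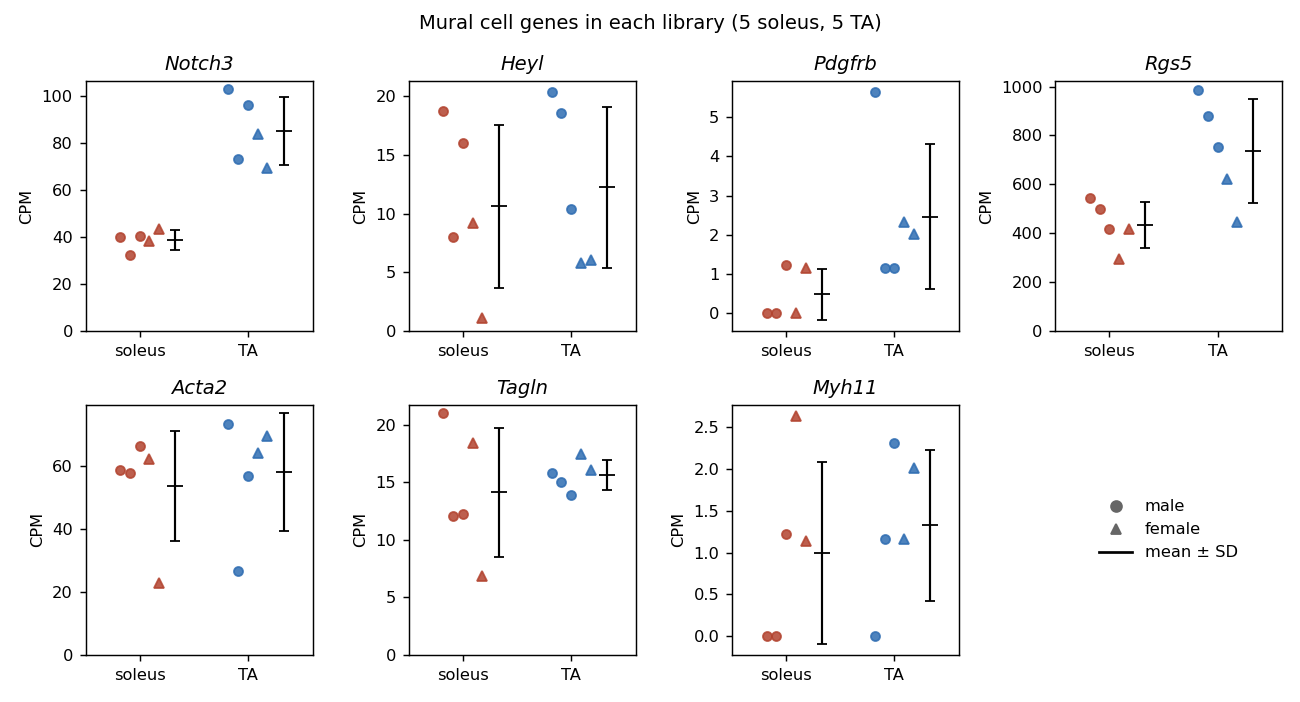
Levels in CPM (vertical axes, each with its own scale) of the 7 mural cell genes in the 5 soleus and 5 TA libraries. Circles are males, triangles are females, and the bars give mean ± SD. The 5 soleus libraries lie below all TA libraries for Notch3, at 32.1 to 43.4 CPM against 69.4 to 103 CPM, and the ranges overlap for the other 6 genes.

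Genes of vessel tone were read from a list of 26 signalling and channel genes, of which 13 were tested. Of these 3 were higher in soleus and 0 lower, and the median was 0.46. DESeq2 called 2. Kcnma1, the large-conductance calcium-activated potassium channel, had 171 ± 57.7 CPM in soleus and 22.4 ± 11.5 CPM in TA (± SD, 5 libraries a muscle), a log2 fold change of 2.90 (SE 0.27, edgeR adjusted p = 8.87e-06). Arhgef12 differed by 1.15 (SE 0.22, edgeR adjusted p = 0.00243). Rgs16, a relative of Rgs5, differed by 3.03 (SE 0.89, edgeR adjusted p = 0.0286). That value rested on soleus female 2, which had 188 CPM against at most 13.2 CPM in the other soleus libraries, and was 0.92 without it (adjusted p = 0.402). The Rgs16 call also ended without TA male 1, TA male 2, TA female 1 or TA female 2. Prkg1, the kinase of nitric oxide and cyclic GMP signals, just missed the threshold (0.72, SE 0.24, edgeR adjusted p = 0.0519). These genes are also expressed outside vessels, and which cells their reads came from was not tested.

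Of the contractile members, Acta2, smooth muscle alpha-actin (chromosome 19, 34241090 to 34255590), had 58.5, 57.5 and 66.4 CPM in soleus males and 61.9 and 22.8 CPM in soleus females. TA males had 73.3, 26.6 and 56.6 CPM and TA females 64.0 and 69.4 CPM. Each muscle thus had 4 libraries between 56.6 and 73.3 CPM and 1 low library, soleus female 2 and TA male 2. Its means were 53.4 ± 17.4 CPM in soleus and 58.0 ± 18.6 CPM in TA (± SD, 5 libraries a muscle), and the log2 fold change of -0.13 did not pass (95% interval -0.79 to 0.53, edgeR adjusted p = 0.811). Without soleus female 2 it was 0.14 (adjusted p = 0.722).

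Tagln, transgelin (chromosome 9, 45929619 to 45936058), had 21.1, 12.0 and 12.3 CPM in soleus males and 18.5 and 6.85 CPM in soleus females. In TA it had 15.8, 15.1 and 13.9 CPM in males and 17.4 and 16.1 CPM in females, all within the range of soleus. Means were 14.1 ± 5.64 CPM in soleus and 15.7 ± 1.32 CPM in TA (± SD, 5 libraries a muscle). The log2 fold change was -0.15 (95% interval -0.81 to 0.50, edgeR adjusted p = 0.780), and it was 0.094 without soleus female 2. That library was the lowest of the soleus libraries for Acta2, Tagln and Heyl and the highest for Notch3.

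Myh11, the smooth muscle myosin heavy chain (chromosome 16, 14194535 to 14291372), had 0, 0, 1, 2 and 1 counts in soleus, 4 in sum, and 0, 1, 2, 1 and 2 counts in TA, 6 in sum. The ratio of TA over soleus was 1.36, with a 95% exact counting interval of 0.322 to 6.55, so neither a difference nor its absence could be read at this depth. In a fit of all 20009 genes with no filter, which called 6.82% of genes, 3.83% higher in soleus and 2.99% higher in TA, and moved the median log2 fold change of all genes to 0.25, it differed by -0.48 (edgeR adjusted p = 0.849).

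**Figure D2:**
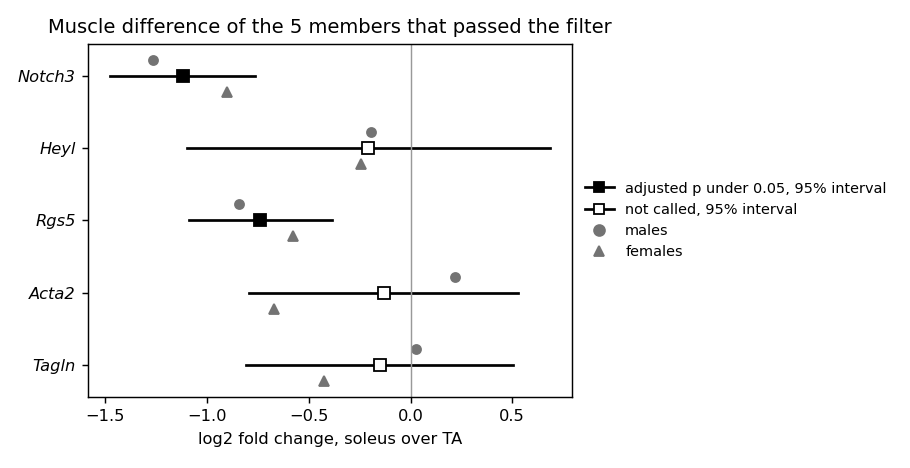
Log2 fold change of soleus over TA (horizontal axis) for the 5 members that passed the filter. Squares with lines give the fit over all 10 libraries and its 95% interval, filled where the adjusted p was under 0.05, and grey circles and triangles give the fits within males and within females. The intervals of Notch3 (-1.48 to -0.76) and Rgs5 (-1.09 to -0.39) lie below 0, and those of Heyl, Acta2 and Tagln span it.

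Further contractile genes of smooth muscle did not share a direction. Of 22 on the list 12 were tested, of which 3 were higher in soleus and 3 lower, with a median of -0.05. DESeq2 called 7. Without soleus female 2 the split was 2 higher and 4 lower. Myl9, named after its values were seen, was called in that fit at -1.72 (edgeR adjusted p = 0.0296). With all libraries it was not called, at -1.37 (adjusted p = 0.0592). Pcp4l1, a relative of Pcp4, had 367 ± 261 CPM in soleus and 3.85 ± 2.41 CPM in TA (± SD, 5 libraries a muscle), a log2 fold change of 6.33 (SE 0.54, edgeR adjusted p = 4.78e-06). Ppp1r12b, a targeting subunit of myosin phosphatase, differed by 1.36 (SE 0.15, edgeR adjusted p = 3.35e-05). Lmod1, the leiomodin of smooth muscle, had 5.53 ± 2.69 CPM against 81.4 ± 42.7 CPM in TA (± SD, 5 libraries a muscle), a log2 fold change of -3.87 (SE 0.47, edgeR adjusted p = 8.24e-05). Tpm1, a tropomyosin, differed by -2.06 (SE 0.26, edgeR adjusted p = 0.000126). Its most counted transcript has only 1.72% of its sequence to itself, which limits what that value covers. Vcl and Des, named after their values were seen, were the other 2 calls, at -0.82 and 0.53, and the call of Des ended in 6 of 10 cases of dropping a library (adjusted p of up to 0.0975), staying without soleus male 2, soleus female 1, TA male 3 or TA female 2. Mylk, the kinase that starts smooth muscle contraction, did not pass (-0.27, SE 0.27, edgeR adjusted p = 0.539). Desmin, the tropomyosins and vinculin are also made by muscle fibers, so the list is not particular to vessels.

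Regulators of smooth muscle genes were read from a list of 20, of which 12 were tested, 2 were lower in soleus and 0 higher. DESeq2 called 2. Smad3, a transducer of TGF-beta signals, had 126 ± 39.3 CPM in soleus and 314 ± 79.3 CPM in TA (± SD, 5 libraries a muscle), a log2 fold change of -1.32 (SE 0.25, edgeR adjusted p = 0.00224). Klf2, a flow-responsive factor of endothelium, differed by -0.78 (SE 0.25, edgeR adjusted p = 0.0409), a call that ended in 7 of 10 cases of dropping a library (adjusted p of up to 0.0980) and stayed without soleus male 2, soleus female 1 or TA male 3. Without soleus female 2 it was -0.53 and 1 of 13 regulators was called. Srf, the serum response factor that binds CArG boxes, did not pass (0.13, SE 0.14, edgeR adjusted p = 0.599). Its partner Mrtfb differed by -0.52 (SE 0.24, adjusted p = 0.156) and Mef2c, a factor of muscle genes, by 0.43 (SE 0.35, adjusted p = 0.431). Myocd, the smooth muscle coactivator, had no count in soleus and 3 in TA, too few for a comparison.

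Pdgfrb, the PDGF-B receptor (chromosome 18, 61045150 to 61085061), had 2 counts in soleus, summed over libraries, and 11 in TA. In soleus males it had 0, 0 and 1 count and in soleus females 0 and 1. In TA males it had 5, 1 and 1 counts and in TA females 2 and 2. A count of 0 allows up to 3.51 CPM in soleus male 1, 4.02 CPM in soleus male 2 and 3.95 CPM in soleus female 1. The ratio of TA over soleus was 4.98 with a 95% exact counting interval of 1.09 to 46.3, which covers counting error only. In the fit with no filter it differed by -2.08 (SE 1.01) and did not pass (edgeR adjusted p = 0.299).

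On a list of 16 PDGF pathway genes 7 were tested, of which 1 was lower in soleus and 0 higher, and DESeq2 also called 1. Nrp1, a coreceptor of VEGF and PDGF that endothelium expresses, had 45.0 ± 16.0 CPM in soleus and 87.1 ± 25.4 CPM in TA (± SD, 5 libraries a muscle), a log2 fold change of -0.99 (SE 0.27, edgeR adjusted p = 0.0207). Pdgfb, the ligand made by endothelium, did not pass (-0.51, SE 0.33, edgeR adjusted p = 0.316). Plcg1, which the receptor activates, differed by -0.41 (adjusted p = 0.276), and Pdgfrl, a receptor-like gene, by 0.93 (adjusted p = 0.288), neither past the threshold.

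Counts were deposited per transcript, so the sequence that each transcript shares with others was measured. Pdgfrb-201 shares all but 1.56% of its 31-mers with the other Pdgfrb transcript, and held all 13 counts. The 3 coding Myh11 transcripts have 1.82%, 1.07% and 0.794% of their 31-mers to themselves and held 5, 3 and 2 counts. By contrast this share was 90.1% in Notch3-201, 92.8% in Heyl-201, 94.0% in Rgs5-201, 66.8% in Acta2-201 and 67.2% in Tagln-201. Only 30 of the 2005 31-mers of Acta2-201 occur in a transcript of another gene. Whether the low counts of Pdgfrb and Myh11 follow from shared sequence was not tested.

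**Figure D3:**
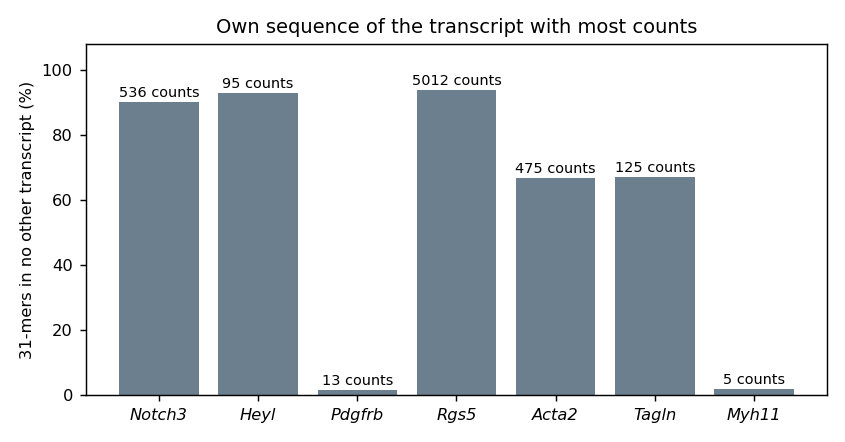
Share of 31-mers found in no other annotated transcript (vertical axis, percent) for the transcript of each member that held most counts, with its counts over the 10 libraries above the bar. Pdgfrb-201, at 1.56% and 13 counts, and Myh11-201, at 1.82% and 5 counts, stand apart from the other 5, at 66.8% to 94.0%.

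One transcript carried each of the 5 tested genes. Notch3-201 and Acta2-201 held all counts of their genes, Rgs5-201 held 99.6%, Tagln-201 98.4% and Heyl-201 97.9%. The second, shorter Rgs5 transcript had 8 counts in soleus and 10 in TA. On the scale of CPM per kilobase of that transcript, Rgs5 was the highest member in both muscles, at 106 ± 22.8 in soleus and 179 ± 51.7 in TA (± SD, 5 libraries a muscle). Acta2 followed with 26.3 ± 8.57 in soleus and 28.5 ± 9.14 in TA. Tagln, at 8.86 ± 3.54 in soleus and 9.56 ± 0.910 in TA, and Notch3, at 4.84 ± 0.522 in soleus and 10.6 ± 1.78 in TA, were neighbours whose mean ± SD ranges overlapped in both muscles. Heyl was lowest of the 5, at 2.24 ± 1.39 in soleus and 2.69 ± 1.51 in TA. On this scale Myh11-201 had 0.118 ± 0.179 in soleus and 0.0707 ± 0.0968 in TA, and Pdgfrb-201 had 0.0877 ± 0.120 in soleus and 0.455 ± 0.342 in TA. The order depends on the scale. Division by length assumes reads from the whole transcript, and division by own 31-mers that only reads of own sequence were counted. Neither is known here, since the labels describe a Tag-Seq preparation and no counter was named. Per 1000 own 31-mers, Pdgfrb-201 had 5.65 ± 7.74 CPM in soleus and 29.3 ± 22.04 CPM in TA, where Tagln-201 had 14.5 ± 1.38, Notch3-201 11.8 ± 1.99 and Heyl-201 2.92 ± 1.64 CPM in TA. Myh11-201 had 6.496 ± 9.83 in soleus and 3.89 ± 5.33 in TA on that scale.

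Of 21 other mural markers on a list, 4 were tested. By edgeR 0 of these 4 were called, 0 had an unadjusted p under 0.05, and DESeq2 called 0. Ednra, an endothelin receptor of smooth muscle, differed by 0.75 (SE 0.43, edgeR adjusted p = 0.258), Nr2f2, a factor of veins, by -0.62 (adjusted p = 0.368), Ebf1, a factor of pericytes among other cells, by -0.40 (adjusted p = 0.527), and Itga7, an integrin of muscle, by 0.16 (adjusted p = 0.753). Cspg4, the NG2 proteoglycan of pericytes, had 5 counts in soleus and 3 in TA. Abcc9 and Vtn were named after their values were seen. Abcc9, the sulfonylurea receptor of pericyte and muscle potassium channels, had 4 counts in soleus and 31 in TA, and Vtn, vitronectin, had 5 in soleus and 29 in TA. In the fit with no filter they differed by -2.69 (edgeR adjusted p = 0.00251) and -2.32 (adjusted p = 0.0128). That fit called 2.99% of all genes higher in TA and 3.83% higher in soleus. Other untested markers, also named after their values were seen, went both ways. Gucy1a1 had 7 counts in soleus and 0 in TA and Higd1b 4 and 2, while Tbx2 had 15 and 36 and Kcnj8 2 and 8. Foxc1 had 27 and 29 and Ndufa4l2 11 and 10. Without soleus female 2 Vtn passed the filter, at -2.09, and was not called (adjusted p = 0.0542). The main Abcc9 transcript has 0.402% of its 31-mers to itself and that of Vtn 7.64%.

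Of 17 genes on an endothelial list 10 were tested, 4 were lower in soleus and 0 higher, 4 of the 10 had a positive log2 fold change, with a median of -0.75, and DESeq2 also called 4. The summed level of the list was 666 to 843 CPM in soleus and 886 to 1661 CPM in TA, and none of the 17 genes was at 0 in all libraries. Aqp1, a water channel of capillaries, differed by -1.40 (SE 0.17, edgeR adjusted p = 7.98e-05), Kdr, a VEGF receptor, by -1.40 (SE 0.25, adjusted p = 0.0017), Cdh5, the junction cadherin, by -1.20 (SE 0.24, adjusted p = 0.00338) and Flt1, another VEGF receptor, by -0.74 (SE 0.15, adjusted p = 0.00449). Each of these 4 calls held whichever single library was dropped. Vwf, of larger vessels, and Cd36, also made by muscle fibers, had the next smallest p, at 1.17 (adjusted p = 0.0688) and 0.94 (adjusted p = 0.0692), and did not pass. Both were named after their values were seen.

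Set against endothelial counts of the same library, Notch3 and Rgs5 lay closer between the muscles, and Acta2, Tagln and Heyl had higher means in soleus than in TA. The endothelial list itself had 592 ± 59.0 counts in soleus and 1166 ± 237 in TA (± SD, 5 libraries a muscle). Division by it therefore raises any gene in soleus relative to TA, so this shift says nothing particular to the members. Per 1000 counts on the endothelial list, Notch3 had 53.8, 38.1, 60.9, 56.4 and 59.4 counts in soleus and 66.3, 43.9, 83.2, 62.9 and 78.3 counts in TA. The groups overlapped, and the soleus value was below that of the same-numbered TA library in 5 of 5 pairs. The mean log2 ratio of soleus minus TA was -0.30, and it did not pass (p = 0.167, 2-sided exact permutation test, 5 libraries a muscle). With the pairs as a block the exact p was 0.0625, the smallest that 5 pairs allow. Against Cdh5, Pecam1 and Kdr alone the difference was 0.054 (exact permutation p = 0.897), and Cdh5 and Kdr were themselves called lower in soleus. Rgs5 had 592 ± 107 counts per 1000 endothelial counts in soleus and 558 ± 82.9 in TA (± SD, 5 libraries a muscle). Acta2 had 73.9 ± 26.7 in soleus and 47.8 ± 22.04 in TA, Tagln 19.6 ± 8.24 in soleus and 12.5 ± 3.53 in TA, and Heyl 14.8 ± 9.99 in soleus and 8.90 ± 3.45 in TA, all with overlapping ranges. The part of the endothelial difference in the Notch3 and Rgs5 results was not tested, and these ratios cannot show it.

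**Figure D4:**
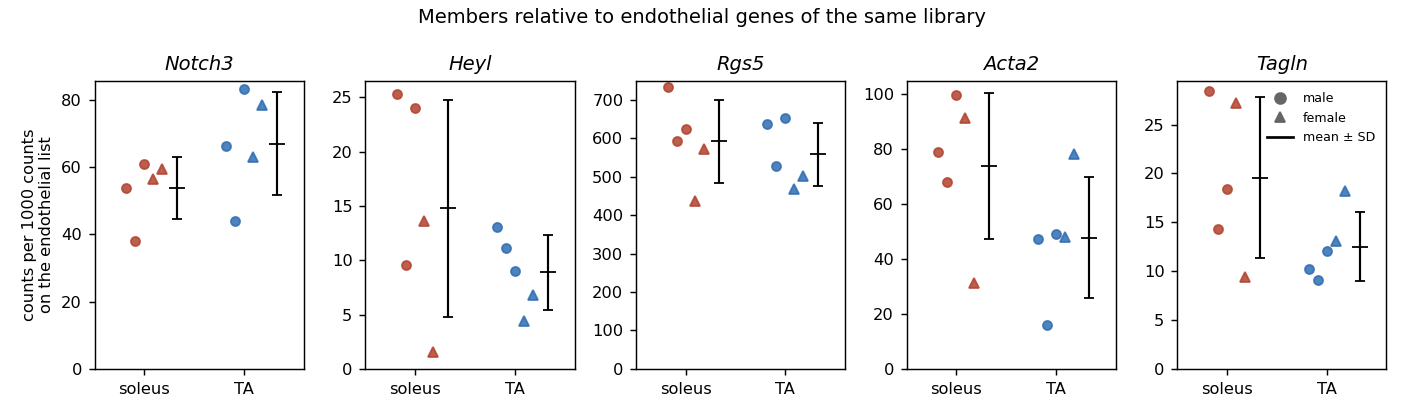
Counts of each tested member per 1000 counts on the 17-gene endothelial list in the same library (vertical axes, each with its own scale), in 5 soleus and 5 TA libraries. Circles are males, triangles are females, and bars give mean ± SD. The soleus and TA ranges overlap for all 5 genes, including Notch3, at 38.1 to 60.9 in soleus and 43.9 to 83.2 in TA.

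Lists of markers were also read for other cell types. In the fibro-adipogenic list 1 of 10 tested genes was higher in soleus, Cd34 (2.58, SE 0.53, edgeR adjusted p = 0.00423), and 1 lower, Smoc2 (-1.71, SE 0.37, adjusted p = 0.00512). Summed, that list had 285 to 13906 CPM in soleus and 554 to 6935 CPM in TA. Tendon cell genes had 2 of 7 higher in soleus and 0 lower, Comp (2.81, SE 0.56, edgeR adjusted p = 0.00337) and Chad (2.20, SE 0.68, adjusted p = 0.0365), or 6 of 7 without soleus female 2. The Chad call ended in 7 of 10 cases of dropping a library (adjusted p of up to 0.105) and stayed without soleus female 2, TA female 1 or TA female 2. Satellite cell genes had 1 of 3 higher, Sdc4 (1.12, SE 0.20, edgeR adjusted p = 0.00171), and 0 lower. Of 5 macrophage genes and 1 Schwann cell gene, edgeR called 0, 0 had an unadjusted p under 0.05, and DESeq2 called 0. Acta2 and Pdgfrb are also expressed by fibroblast-like cells and Heyl by satellite cells, and the part of these cells in the values was not tested.

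**Figure D5:**
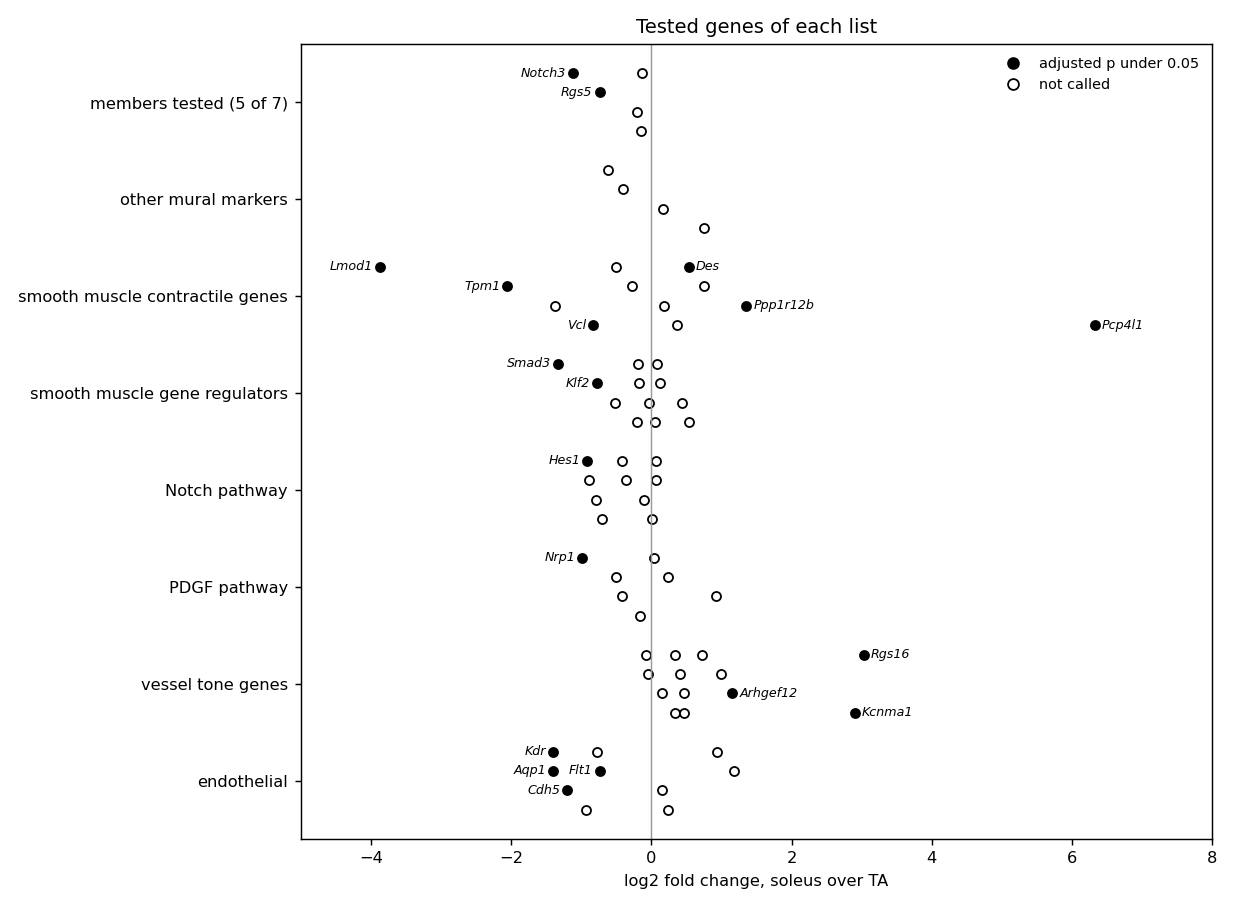
Log2 fold change of soleus over TA (horizontal axis) for the tested genes of the members and of 7 further lists, 1 point a gene, spread vertically within a list for legibility. Filled points passed an adjusted p of 0.05 and are named. Calls of the endothelial, Notch and PDGF lists lie at negative values, those of the vessel tone list at positive values, and the contractile list has 3 on each side.

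Sex was the other label. By edgeR 0 of the 5 tested members differed between females and males in soleus, where 0.547% of all genes were called, and 0 in TA, where 0.645% were. At an unadjusted p under 0.05 stood Rgs5 in TA and Heyl in both muscles, beside 845 of all 5115 genes in soleus and 596 in TA. Rgs5, female over male, had a log2 difference of -0.44 (SE 0.24, edgeR adjusted p = 0.376) in soleus and -0.71 (SE 0.24, adjusted p = 0.247) in TA. Both female TA libraries lay below all 3 male ones for Rgs5, as for Heyl, while in soleus the sexes overlapped for both genes. How many of all tested genes do so in TA was not counted. For Heyl the difference was -1.50 (SE 0.68, adjusted p = 0.301) in soleus and -1.45 (SE 0.63, adjusted p = 0.405) in TA. These contrasts rest on 2 females and 3 males in each muscle.

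The muscle difference itself was not shown to depend on sex. For Notch3 it was -0.90 (SE 0.25) in females and -1.27 (SE 0.21) in males, and for Rgs5 -0.58 (SE 0.26) in females and -0.84 (SE 0.21) in males. Acta2 had values of opposite sign, -0.67 (SE 0.46) in females and 0.22 (SE 0.37) in males. The interaction, females minus males, was 0.36 for Notch3 (edgeR adjusted p = 0.825), 0.26 for Rgs5 (adjusted p = 0.873) and -0.89 for Acta2 (adjusted p = 0.772). By edgeR 0 members had an interaction, at an unadjusted p as well, and 0 of all 5115 genes were called, with 351 at an unadjusted p under 0.05.

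The genes with the most similar patterns were sought among 4943 tested protein-coding genes by Pearson's r of log2 CPM over the 10 libraries after the mean of each muscle was subtracted. For Notch3 they were Svep1, a large matrix protein (r = 0.939), and Sik3, a kinase (r = 0.901). For Rgs5 they were H2-Q7 (r = 0.959), of a multigene family whose counts are uncertain, and Nlrc3 (r = 0.945), for Acta2 Aamp (r = 0.950) and Ppp6r2 (r = 0.935), for Tagln Tuba4a (r = 0.970) and Atad1 (r = 0.950), and for Heyl Metap2 (r = 0.956) and Acot13 (r = 0.936). With 10 libraries, values of this size are the top of a long search, and they share the scaling of the same libraries. The search was not repeated without soleus female 2, the lowest soleus library for Acta2, Tagln and Heyl. Its part in these r values was not tested. No gene was named for 2 members.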

How the data were processed

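RNA sequencing libraries of soleus and TA were deposited by the authors as raw read counts per Ensembl transcript, with only transcripts of at least 1 count listed. Per the labels, 10 ng of total RNA entered a Tag-Seq preparation with a Takara SMART-Seq Stranded protocol. The submitters' processing notes name bcl2fastq, Trimmomatic 0.32, FastQC and the build GRCm38.p4, and no aligner or counter is named (not given in the sources used here). Whether soleus and TA of 1 number came from 1 mouse, or replicates from separate preparations, was not stated, so p-values measure the spread between these libraries.

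Transcripts were summed to genes by identifier without version (GENCODE M21, GRCm38). Of 40414 transcripts 40359 matched, and 55 were left out. After filterByExpr (4 muscle and sex groups) 5115 genes stayed, which were scaled by TMM and tested with edgeR 4.0.16 (quasi-likelihood, sex as a covariate) in R 4.3.3, calling genes at a Benjamini-Hochberg adjusted p under 0.05. DESeq2 1.42.0 was an alternative. SE is the log2 fold change over the square root of F. Sex and interaction used a model of 4 group means. Intervals and floors (3 counts) cover counting error only, since no molecular identifiers were given. Own sequence is the share of 31-mers found in no other M21 transcript on the same strand. The soleus against TA fit was also run on simulated counts, and the other tests were not. Python 3.11.15, scipy 1.17.1 and matplotlib 3.10.9 were used for tables, exact tests and plots.

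The members and gene lists were chosen with earlier results of these data known. Genes named were the members, up to 4 tested genes with the smallest p of the main lists, 7 genes fixed by name, and the 2 most similar genes per member. Exceptions are said beside them. After muscle and sex means were removed, same-numbered soleus and TA libraries correlated over 5115 genes at 0.183 to 0.239 in males and 0.285 in females, so by the rule of over 0.1 in every pair the numbers were read as pairs in an alternative fit. Removing the means ties these values together, and the 2 female pairs share 1 value.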

Additional observations from a re-analysis of the deposited data

Results flagged for a closer look

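In 132 groups of 5 libraries, 9 had a library farther from the rest than Dixon's 95% limit of 0.710 for the gap over the range, where chance gives about 1 in 20. Of these 9, 5 were in soleus female 2. Acta2 was low there, at 22.8 CPM against 57.5 CPM in the next soleus library. Aamp was low there too, at 64.0 CPM against 104 CPM. It was picked for its likeness to Acta2 over these same libraries, so its value is not separate from that of Acta2. High in that library were Rgs16 at 188 CPM against 13.2 CPM, Cd34 at 60.5 CPM against 17.4 CPM, and Dll4 at 21.7 CPM against 8.19 CPM. Pdgfrb was high in TA male 1, at 5.64 CPM against 2.33 CPM in the next library, which is 5 counts against 2. Kdr was low in TA female 2, at 49.3 CPM against 131 CPM. Vwf was low in soleus male 3, at 4.92 CPM against 12.0 CPM. The log2 ratio of Notch3 to endothelial counts was low in soleus male 2, at -4.71 against -4.22.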

How the results depend on the processing

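Notch3 and Rgs5 were the 2 members called in all 19 alternative fits (other scalings, filters and transcripts, the DESeq2 Wald test, no sex covariate, the pairs as a block, and leaving out each library). Notch3 ranged from -1.19 to -1.04 and Rgs5 from -0.84 to -0.67, with adjusted p of up to 0.00211 and 0.0352. The replicate block gave -1.12 for Notch3 and -0.74 for Rgs5 and changed no call of a member, with 1207 genes called over the table, against 1126. Without soleus female 2 the sign turned to 0.14 for Acta2, 0.094 for Tagln and 0.0077 for Heyl, none past the threshold. Leaving out 1 library gave -0.35 to 0.14 for Acta2, -0.35 to 0.094 for Tagln and -0.46 to 0.0077 for Heyl. Notch3 per endothelial counts was 0.054 against Cdh5, Pecam1 and Kdr alone. It ran from -0.45 to -0.18 when 1 library was left out, and it passed without TA male 2 (exact permutation p = 0.0159). With the pairs as a block its exact p was 0.0625, the smallest that 5 pairs allow. Members called between the sexes numbered 0 to 2 when 1 library was left out. The 2, Acta2 and Heyl in soleus without soleus female 1, rest on soleus female 2 alone, assumed to vary like the other groups. No member had an interaction in any of the 12 alternatives. The fit with no filter moved the median of all genes to 0.25, so its values for Pdgfrb, Myh11, Abcc9 and Vtn are relative to that. Gene lists were recounted without soleus female 2, a choice made after seeing the data. Counts were low for Heyl, at 1 to 18 a library, and Pdgfrb and Myh11 did not pass the filter.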
